A study of Mus musculus with 8 samples.

Results

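Neutrophils of mouse dorsal skin were picked from single-cell RNA sequencing of 8 libraries, 4 from skin injected with PBMCsec and 4 from skin injected with vehicle control. A neutrophil was a cell with UMIs of at least 3 of the 7 genes S100a8, S100a9, Csf3r, Cxcr2, Retnlg, G0s2 and Il1r2, with Csf3r, Cxcr2 or Retnlg among them. A UMI is 1 counted RNA molecule. Cells with a UMI of C1qa (macrophages), Cd209a (dendritic cells) or Cd3e (T cells), or with 5 or more UMIs of the keratinocyte gene Krt14, were not taken. The rule found 116 neutrophils among 11118 cells kept, which in turn came from 26231 barcodes. Since these 11 genes chose the cells, their levels are given here as a description and were not tested.

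All mice were female BALB/c, and the labels give an age of 14 to 16 weeks and dorsal skin for every sample. PBMCsec is the secretome of irradiated human peripheral blood mononuclear cells, so the injected material is of another species. The study describes intradermal injection of healed scars, killed mice at 2 time points and used both medium and saline as controls. The labels tell apart neither the times nor the control solutions, so a group can hold both. The skin was dissociated with enzymes and live cells were loaded after a sort for cells without DAPI, which limits the view to neutrophils that outlast these steps. Between 14753926 and 37880651 UMIs were counted per library.

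Neutrophils are short-lived granulocytes that leave the blood for injured or infected tissue. They carry preformed granules with proteases and antimicrobial proteins, make reactive oxygen through the NADPH oxidase, and release chemokines and interleukin 1 beta that attract and arm other cells. In skin they are rare at rest and enter in numbers soon after wounding.

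The cells carried the label's markers. S100a8 and S100a9, which form the calcium-binding protein calprotectin of the neutrophil cytosol, were found in 113 of the 116 cells each, or 97.4%, against 0.745% and 0.709% of all other cells. Csf3r, the receptor of the growth factor G-CSF, was found in 107 cells, Cxcr2, the receptor of the CXC chemokines, in 88, Il1r2, a decoy receptor of interleukin 1, in 88, G0s2, an inhibitor of fat breakdown, in 86 and Retnlg, a resistin-like secreted protein, in 26. Of the 7 genes, 8 cells held all, 48 held 6, 39 held 5, 19 held 4 and 2 held 3. Genes that the rule did not use were found as well. Ptprc, the pan-leukocyte gene, had a UMI in 105 cells, Srgn, the proteoglycan core of granules, in 116, Hdc, histidine decarboxylase, in 96 and Trem1, an activating receptor of neutrophils and monocytes, in 75. The share with a Hdc UMI was 82.8% in neutrophils at a median of 1556 UMIs per cell and 0.982% in all other cells at a median of 7499 UMIs. Some other neutrophil genes were low or absent. Ly6g, the surface antigen usually used to sort mouse neutrophils, had a UMI in 6 cells. Of the genes made in the bone marrow during granule formation a part was nearly silent, with Mpo, Elane, Prtn3 and Camp at 0, Ngp in 3 cells and Ltf in 3. A count of 0 of 116 allows a share of up to 2.59% of cells with a UMI. Chil3 also had no UMI, and Mmp8, the neutrophil collagenase, was found in 24 cells. Other granule genes were found more often, with Lcn2 in 37 cells, Mmp9 in 51, Pglyrp1 in 54 and Hp in 79.

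The per-library levels of the rule genes were uneven. CPM here are UMIs per 1000000 UMIs of the neutrophils of that library. S100a9 stood at 33755, 54969, 72329 and 66099 CPM after PBMCsec and 59319, 51238, 94331 and 49841 CPM after vehicle, each in the order of libraries 1 to 4. S100a8 stood at 16337, 28796, 36973 and 30296 CPM after PBMCsec and 37187, 34232, 38377 and 16847 CPM after vehicle. The groups overlapped for both genes, and PBMCsec 1 and vehicle 4 were the lowest of their groups. G0s2 ranged from 969 CPM in vehicle 4 to 17301 CPM in vehicle 1. Retnlg ranged from 0 in vehicle 4 to 6152 CPM in vehicle 3.

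**Figure D1:**
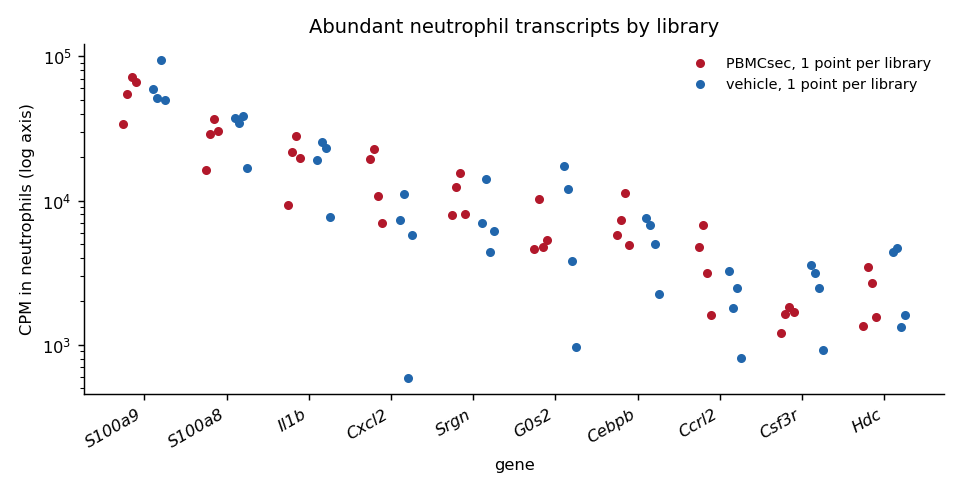
Levels in CPM (log axis) of 10 abundant or defining genes in the neutrophils of each library, with PBMCsec in red and vehicle in blue and 1 point per library. S100a9 and S100a8 lead, Il1b and Cxcl2 follow, and the points of the groups overlap for every gene shown.

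Cells near the limits of the rule were few. The 2 cells with exactly 3 of the 7 genes had a median of 5131 UMIs, and 9 further cells with exactly 2 genes, outside the rule, had a median of 7255 UMIs and medians of 0 for S100a8 and S100a9. The 24 cells that lay less than 50 genes above the minimum of 500 had a median of 38.5 UMIs of S100a8, and the 25 cells up to 50 genes below it, left out, had a median of 13. A lower minimum of 200 genes raised the number of neutrophils from 116 to 170, of which 50 rather than 25 were in PBMCsec 4 and 13 rather than 5 in vehicle 4. No neutrophil barcode occurred in another library, while 78 barcodes of the series did.

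Of the 116 neutrophils, 6 had over 4000 UMIs and stood apart from the rest. They ranged from 7561 to 12776 UMIs, held 24.1% of all neutrophil UMIs and carried 93.5% of the neutrophils' UMIs of 6 fibroblast genes (1687 of 1804), and 1 of them had a UMI of neither S100a8 nor S100a9. Of these 6 cells 2 came from PBMCsec 1, 1 from PBMCsec 2, 2 from PBMCsec 4 and 1 from vehicle 4, where this 1 of 5 cells held 51.5% of the UMIs. The summed level of the fibroblast genes was 10036, 7205, 216 and 4397 CPM in PBMCsec 1 to 4 and 225, 87.2, 293 and 29872 CPM in vehicle 1 to 4, and Col3a1 was the most abundant. Without the 6 cells it was 374, 178, 216 and 364 CPM in PBMCsec 1 to 4 and 225, 87.2, 293 and 8329 CPM in vehicle 1 to 4, with Pdgfra at 0. No doublet caller was run, and the counts of called genes below, in all and by list, are also given for the 110 cells with at most 4000 UMIs.

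Markers of other skin cells were otherwise low. The list of 10 macrophage and monocyte genes summed to 1035, 312, 323 and 484 CPM in PBMCsec 1 to 4 and 337, 567, 1758 and 108 CPM in vehicle 1 to 4, with Apoe the most abundant, 7 of 10 found and C1qa, C1qc and Ccr2 at 0, where C1q macrophages held between 19697 and 32966 CPM. Of 8 lymphocyte genes, Cd3d was found with 10 UMIs in all, and Cd3e, Trbc2, Trac, Cd79a, Ms4a1, Nkg7 and Ncr1 were at 0. Of 11 mast cell, basophil and eosinophil genes, Siglecf was found with 4 UMIs and the other 10, among them Cpa3, Mcpt4, Cma1, Mcpt8 and Epx, were at 0. The 8 keratinocyte genes were all found, with Lgals7 the most abundant, and summed to 315, 237, 1186 and 1916 CPM in PBMCsec 1 to 4 and 0, 479.7, 2490.1 and 269 CPM in vehicle 1 to 4. The keratinocyte level was thus highest in vehicle 3 and PBMCsec 4 and absent in vehicle 1. Of 10 dendritic cell genes 5 were found, with 53 UMIs in all, led by Cd74, and Cd209a, Mgl2, Ccr7, Flt3 and Xcr1 were at 0. Of 8 genes of endothelium, pericytes, red cells and platelets 4 were found, with 55 UMIs in all, led by Acta2.

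The neutrophils held little RNA and few mitochondrial transcripts. Their median per library lay between 1110 and 2033 UMIs, against 6822 to 8806 UMIs in all other cells, with means of 1598 ± 302 and 7676 ± 753 UMIs (SD, n = 8 libraries). The median share of mitochondrial UMIs was 0.359% ± 0.231 in neutrophils and 4.82% ± 0.384 in all other cells (SD, n = 8). Both were lower in neutrophils in 8 of 8 libraries (exact sign-flip test, two-sided, p = 0.0078, the smallest that 8 libraries can give). The same held against C1q macrophages (5841 ± 2102 UMIs and 5.25% ± 0.515) and Cd209a dendritic cells (8478 ± 2170 UMIs and 3.81% ± 1.82), with the same exact p. The rule itself bounds both measures for all cells (from 500 up to 4000 genes, no more than 20000 UMIs, no more than 10% of them mitochondrial), and 5 of 116 neutrophils but 4963 of 11002 other cells had over 5%.

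**Figure D2:**
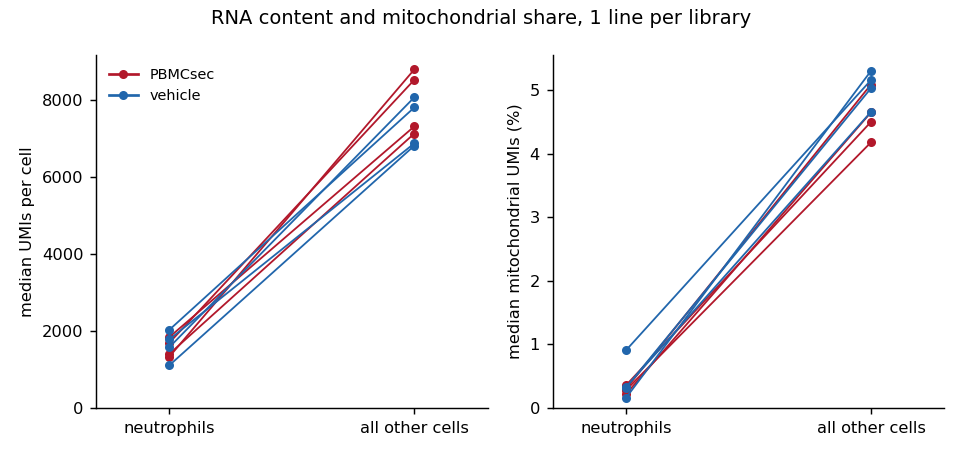
Median UMIs per cell (left) and median share of mitochondrial UMIs in percent (right) in neutrophils and in all other cells, with 1 line per library, PBMCsec in red and vehicle in blue. Every line rises, from at most 2033 to at least 6822 UMIs and from at most 0.908% to at least 4.18%.

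The share of neutrophils varied more between libraries than between groups. It was 1.76%, 6.62%, 0.276% and 1.56% in PBMCsec 1 to 4 (19 of 1080, 35 of 529, 7 of 2534 and 25 of 1600 cells) and 1.57%, 3.42%, 0.207% and 0.287% in vehicle 1 to 4 (5 of 318, 14 of 409, 6 of 2903 and 5 of 1745 cells). The groups overlapped. Both ranked in the same order by number, with library 2 highest, then 1, 4 and 3, and at each number PBMCsec lay above vehicle. The mean was 2.55% ± 2.79 after PBMCsec and 1.37% ± 1.504 after vehicle (SD, n = 4), a difference of 1.18 percentage points that lay within the spread (exact permutation test, two-sided, p = 0.571). The smallest p that 4 against 4 libraries allow is 0.0286. Among cells with a UMI of Ptprc the share was 7.09% ± 5.33 and 4.08% ± 3.71 (exact permutation p = 0.457, 0.571 after adjustment over both denominators). Without PBMCsec 2, and with vehicle 2 kept, the difference was -0.173 percentage points. In libraries 1 and 2 alone it was 1.69 and in libraries 3 and 4 alone, which do not include PBMCsec 2, it was 0.673 (0.919% against 0.247%). Libraries also differed in the number of cells kept, from 318 to 2903, and the 4 libraries with the fewest cells kept (318 to 1080) had shares from 1.57% to 6.62%, the other 4 from 0.207% to 1.56%. What part the dissociation had in the shares was not tested.

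**Figure D3:**
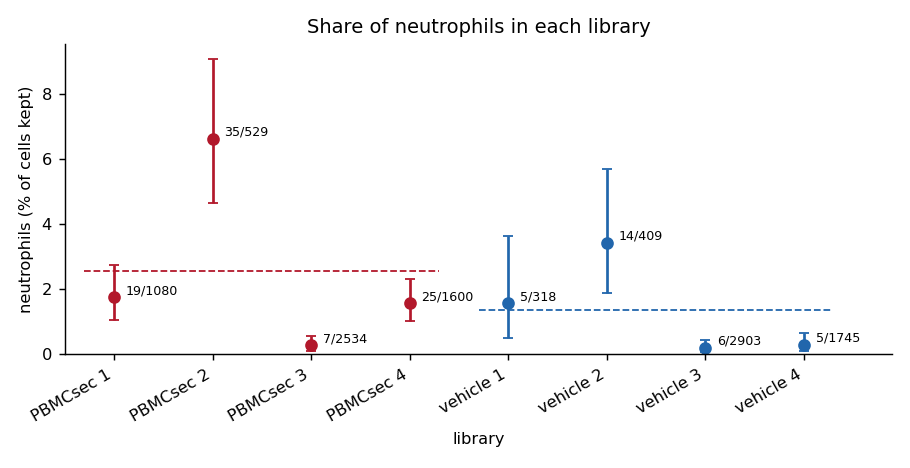
Share of neutrophils among the cells kept, in percent, in each library. Points carry exact 95% binomial intervals, which cover counting error only, the dashed lines are the group means (2.55% and 1.37%), and the figures beside the points give neutrophils of cells kept. PBMCsec 2 stands highest at 6.62%, and the groups overlap.

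The comparisons of genes used counts summed over the neutrophils of a library. C1q macrophages (220 cells, with C1qa and at least 1 more of C1qb and C1qc) and Cd209a dendritic cells (151 cells, with Cd209a and Mgl2) of the same mice served as the nearest myeloid classes. A comparison needed 10 cells of both classes in a library, which PBMCsec 1, 2 and 4 gave for macrophages and PBMCsec 1, PBMCsec 4 and vehicle 2 for dendritic cells. The macrophage comparison thus holds no vehicle library. Other genes of the same cells are not independent of the genes that chose them, so the calls describe what else set the classes apart. A gene was called at an adjusted p under 0.05 in edgeR's quasi-likelihood test with the library as a block. Against macrophages 595 of 1679 genes tested were called (35.4%), 345 higher in neutrophils (20.5%) and 250 lower (14.9%), with a median log2 fold change over all genes of -0.12. Against dendritic cells 403 of 1113 genes were called (36.2%), 251 higher (22.6%) and 152 lower (13.7%), with a median of -0.19. Among the cells with at most 4000 UMIs the calls were 402 higher and 479 lower against macrophages and 301 and 363 against dendritic cells. Of the 345 and 250 genes called against macrophages, 309 and 237 were called the same way without the deep cells, as were 237 of 251 and 140 of 152 against dendritic cells. With a minimum of 5 cells of both classes, which lets more libraries in and tests fewer genes, the calls were 209 higher and 270 lower of 812 against macrophages and 228 and 329 of 816 against dendritic cells, and 155 of the 345, 134 of the 250, 155 of the 251 and 114 of the 152 genes were called the same way. With Krt14 at 0 in every neutrophil 824 genes were tested against macrophages, of which 170 were called higher (20.6%) and 247 lower (30%). DESeq2 gave another split against dendritic cells, with 205 higher and 215 lower. In the dendritic comparison 1 library decided the count: without PBMCsec 1 it fell to 35 of 1175 genes (2.98%), 32 higher and 3 lower. The calls by list and by gene against dendritic cells given below are from the fit with PBMCsec 1. They outnumber the calls left without it, so not all of them can stand there.

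Among chemokine and cytokine ligands, the signals neutrophils send, 11 of 16 genes tested were higher than in macrophages and 2 were lower (median log2 fold change 2.65), and 5 of 9 were higher than in dendritic cells and 1 lower (median 4.80). The list as fixed also holds Il1rap, a receptor subunit and not a ligand. Il1b, which encodes interleukin 1 beta, lies at chr2:129364570-129371139 on the minus strand (GRCm38) and had a UMI in 115 of 116 cells, or 99.1%, against 12.7% of macrophages and 43% of dendritic cells. Its level was 9249, 21628, 28134 and 19767 CPM after PBMCsec and 19099, 25423, 22997 and 7697 CPM after vehicle. It was thus high in every library, lowest in PBMCsec 1 and vehicle 4. The log2 fold change was 7.33 ± 1.14 against macrophages (SE, edgeR, adjusted p = 0.000971) and 4.65 ± 0.53 against dendritic cells (adjusted p = 0.00172). Cxcl2, a chemokine that binds Cxcr2 and so recruits further neutrophils, had a UMI in 76 cells and stood at 19330.3, 22689, 10672 and 6999 CPM after PBMCsec and 7303, 11033, 586 and 5759 CPM after vehicle. Vehicle 3 was far below the rest. Cxcl2 was higher than in macrophages by 4.57 ± 0.53 and than in dendritic cells by 6.56 ± 0.82 on the log2 scale (SE, edgeR, adjusted p = 0.000311 and 0.00172). Il1rn, the interleukin 1 antagonist, Osm, oncostatin M, and Csf1, the macrophage growth factor, also passed the test in both comparisons, while Ccl9 was lower in both and Ccl2 was lower than in macrophages. Csf1 had no UMI in the dendritic cells compared and Ccl2 none in the neutrophils, so neither could come out the other way there. Il6 and Il10 had no UMI in any neutrophil.

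The promoters of Cxcl2 and Ccl3 are shown because Cxcl2 is the most abundant chemokine of the list and because Ccl3 and Ccl4 had the smallest p-values in the treatment comparison further on. The sequences are from RefSeq (GRCm38.p6), reach from 250 bases before to 50 bases after the transcription start, and are in lower case with matches to the 10-base NF-kappa-B motif (searched on both strands, with any base allowed after the opening GGGA) in capitals. NF-kappa-B is the factor through which many inflammatory signals reach chemokine genes. Cxcl2 (chr5:90903649-90903948, plus strand) holds 1 match and Ccl3 (chr11:83649329-83649628, minus strand) none, and 135 of 32851 promoters of this length hold the motif (0.411%). A match of letters is a description of the sequence and not a measured site. Ccl4 was not found in the promoter table.
Cxcl2: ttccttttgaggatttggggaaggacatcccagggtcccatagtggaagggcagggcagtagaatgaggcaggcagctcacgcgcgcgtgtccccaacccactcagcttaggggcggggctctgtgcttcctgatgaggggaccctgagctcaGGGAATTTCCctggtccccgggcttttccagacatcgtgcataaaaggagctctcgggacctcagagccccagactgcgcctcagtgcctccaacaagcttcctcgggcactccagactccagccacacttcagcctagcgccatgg
Ccl3: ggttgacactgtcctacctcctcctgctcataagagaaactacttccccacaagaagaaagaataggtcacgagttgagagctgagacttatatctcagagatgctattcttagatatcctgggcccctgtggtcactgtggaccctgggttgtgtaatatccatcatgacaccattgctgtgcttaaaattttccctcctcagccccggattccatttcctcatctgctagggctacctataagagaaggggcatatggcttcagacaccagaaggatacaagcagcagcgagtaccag

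Immediate early and NF-kappa-B feedback genes, which cells switch on within minutes of a signal and also of dissociation, were higher in neutrophils in 16 of 21 genes tested against macrophages and 15 of 19 against dendritic cells, and lower in none (medians 2.09 and 2.41). Dusp1, a phosphatase that ends MAP kinase signals, stood at 3240.5, 4870, 4743 and 2824 CPM after PBMCsec and 4719, 5669, 3808 and 1076 CPM after vehicle. The groups overlapped. It was higher by 3.10 ± 0.57 and 3.84 ± 0.63 on the log2 scale (SE, edgeR, adjusted p = 0.00247 and 0.00372). Nfkbia, the inhibitor of NF-kappa-B, ranged from 0 in vehicle 3 to 8304 CPM in PBMCsec 2, and Ptgs2, the inducible cyclooxygenase, was found in 85 cells. Junb and Zfp36, a destabiliser of cytokine transcripts, were called in both comparisons with log2 fold changes between 1.71 and 2.41. What part the dissociation had in the level of these genes was not tested.

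Of the secondary and tertiary granule genes 8 of 10 tested were higher than in macrophages (among them Lcn2, Mmp9, Hp, Mcemp1, Adam8, Lrg1 and Pglyrp1) and 7 of 11 than in dendritic cells, and none was lower. Of these, 3 of the 10 had no UMI in the macrophages and 5 of the 11 none in the dendritic cells compared, so they entered the test through the neutrophils alone and could only come out higher. The medians over the tested genes were 5.52 and 4.18, or 5.17 and 4.18 with genes at 0 in a class set to their bound. Hp, haptoglobin, which binds free haemoglobin, stood at 878, 849, 970.1 and 1634 CPM after PBMCsec and 562, 2049.5, 2929.5 and 484 CPM after vehicle, and had a UMI in 68.1% of neutrophils and 0.582% of all other cells. It was higher by 6.92 ± 0.89 on the log2 scale than in macrophages (SE, edgeR, adjusted p = 0.000453) and at least 230-fold higher than in dendritic cells, where the cells compared held no UMI. A bound of this kind sets the class without a UMI to 3 UMIs over its tested libraries. Pglyrp1, a peptidoglycan-binding protein, was at least 97.4-fold higher than in macrophages and at least 81.4-fold higher than in dendritic cells. Lcn2, which withholds iron from bacteria, was at least 109-fold higher than in macrophages but was not among the genes tested there without the 6 deep cells, and Mmp9, the gelatinase of tertiary granules, at least 104-fold higher than in dendritic cells. Of the 8 primary granule genes 3 were tested, and Mpo, Elane, Prtn3, Ctsg and Serpinb1a had no UMI. Srgn was higher in both comparisons by 4.19 ± 0.68 and 3.13 ± 0.45 (SE, log2, edgeR adjusted p = 0.00122 and 0.00263). Ctsc, the protease that activates granule proteases, was lower in both. Lyz2, lysozyme, was lower than in macrophages (log2 fold change -3.28 ± 0.59 SE, edgeR adjusted p = 0.0022) and was not called against dendritic cells (-1.84 ± 0.76, adjusted p = 0.0925).

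Of the NADPH oxidase genes 3 of 7 tested (among them Ncf4, a cytosolic part of the enzyme, and Rac2, its GTPase) were higher than in macrophages and 1, the membrane subunit Cybb, was lower (median 0.65), and 2 of 5 (Ncf4 and Rac2) were higher than in dendritic cells (median 1.35). Cybb had a UMI in 7 neutrophils. Cyba, its partner, stood at 923, 712, 970.1 and 807 CPM after PBMCsec and 899, 959, 2197 and 592 CPM after vehicle and was not called, with log2 fold changes of -0.31 ± 0.48 and 0.26 ± 0.48 (SE, edgeR adjusted p = 0.626 and 0.667).

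Receptors for microbes and for chemoattractants were higher in part. Of the pattern and Fc receptors 6 of 13 tested were higher than in macrophages and 6 of 10 than in dendritic cells, and Fcgr2b, the inhibitory Fc receptor, was lower in both (medians 1.47 and 4.58). Of the 13, Trem1 and Trem3 had no UMI in the macrophages compared and could only come out higher. Trem1 stood at 743, 1186, 647 and 827 CPM after PBMCsec and 899, 1221, 732 and 323 CPM after vehicle and was at least 192-fold higher than in macrophages, none of which held a UMI. Clec4d and Clec4e, a pair of lectins for mycobacterial and fungal lipids and sugars, were found in 81.9% and 72.4% of neutrophils and in 12.3% and 5% of macrophages. Fpr2 and C5ar1, receptors of formyl peptides and of complement C5a, passed in both comparisons. Of the receptors and adhesion genes 7 of 12 were higher and 1 lower than in macrophages, and 5 of 11 higher and 1 lower than in dendritic cells (medians 1.86 and 1.23). Ccrl2, a receptor that holds chemerin at the cell surface, stood at 4771, 6756, 3126 and 1614 CPM after PBMCsec and 3258, 1788, 2490.1 and 807 CPM after vehicle, and was higher by 4.88 ± 0.57 and 5.01 ± 0.65 on the log2 scale (SE, edgeR adjusted p = 0.000311 and 0.00191). Cxcr4, which retains neutrophils in the marrow and rises as they age, had a UMI in 60 cells and was higher than in macrophages by 2.02 ± 0.43 and than in dendritic cells by 3.95 ± 0.60 on the log2 scale (SE, edgeR adjusted p = 0.00498 and 0.00306). The lower gene in both was Ccr2, the receptor of monocytes, which was at 0 in neutrophils and could only come out lower. It was at least 30.2-fold lower than in macrophages and at least 30.1-fold lower than in dendritic cells.

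Interferon-stimulated genes were higher in 6 of 14 tested against macrophages and 7 of 8 against dendritic cells, and lower in none (medians 1.41 and 3.52). Isg15, a ubiquitin-like protein, stood at 2678, 2210.2, 2371 and 343 CPM after PBMCsec and 2921, 1134, 1318 and 646 CPM after vehicle. PBMCsec 4 was the lowest of its group and vehicle 4 of the other. It was higher by 3.05 ± 0.59 and 4.29 ± 0.70 on the log2 scale (SE, edgeR adjusted p = 0.00307 and 0.00372). Among survival and cell death genes 7 of 11 and 5 of 7 were higher and none was lower (medians 2.28 and 2.44), with Mcl1, the survival factor on which neutrophils depend, found in 99.1% of the cells at 3308, 3571, 4743 and 3106 CPM after PBMCsec and 7303, 4709.6, 2490.1 and 2045 CPM after vehicle. Of the transcription factors 4 of 11 and 7 of 11 were higher and none was lower (medians 0.86 and 1.27). Cebpb, the factor of emergency granulopoiesis, stood at 5806, 7293, 11210.5 and 4922 CPM after PBMCsec and 7527, 6716, 4980.2 and 2261 CPM after vehicle and was higher by 2.97 ± 0.52 and 5.09 ± 0.56 (SE, log2, edgeR adjusted p = 0.00174 and 0.00172). Mxd1, an antagonist of Myc, was higher by 5.01 ± 0.62 and 6.69 ± 0.98 (edgeR adjusted p = 0.0004 and 0.00274).

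Of the stefins and cystatins, inhibitors of cysteine proteases, 3 of 5 tested were higher and 1 lower than in macrophages, and 2 of 3 higher and 1 lower than in dendritic cells (medians 3.28 and 1.81). Of these, 2 of the 5 and 1 of the 3 had no UMI in the other class and could only come out higher. The 3 higher than in macrophages, Stfa2l1, BC100530 and Gm5483, lie together on chromosome 16, while the 2 higher than in dendritic cells were Stfa2l1 and Cstb, which lies on chromosome 10. Stfa2l1 was at least 178-fold and at least 102-fold higher. Reads of Stfa2l1, Gm5483 and BC100530 can be shared between copies, so the count of each is uncertain. Cst3, cystatin C, on chromosome 2, was the lower gene in both. Of 8 glycolysis genes tested 1 was called higher in each comparison (Slc2a3, a glucose transporter, in both) and none lower, with medians of 0.02 and -0.38. Of 8 cell cycle genes Top2a, Mcm5, Birc5 and Cdk1 had no UMI and Mki67 was found in 3.45% of the cells. The 1 cell cycle gene tested, the tubulin Tubb5, was lower in both comparisons.

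Without the 6 deep cells 24.7% of 1626 genes were called higher and 29.5% lower than in macrophages, and 30.1% of 1000 higher and 36.3% lower than in dendritic cells. Of the secondary and tertiary granule genes 8 of 10 and 7 of 10 were then higher and none lower, with Wfdc21 and not Lcn2 among the genes tested against macrophages. As in the full set, genes without a UMI in the other class could only come out higher, among them Wfdc21 and Pglyrp1 against macrophages. Of the early response genes 18 of 21 and 18 of 20, of the interferon-stimulated genes 9 of 15 and 7 of 9 and of the survival genes 8 of 11 and 6 of 7 were higher, with none lower. Of the ligands 12 of 17 were higher and 2 lower than in macrophages, and 7 of 9 higher and 1 lower than in dendritic cells. Of the pattern and Fc receptors 7 of 13 and 6 of 10, of the receptors and adhesion genes 11 of 13 and 8 of 12 and of the NADPH oxidase genes 3 of 7 and 3 of 5 were higher, with 1 lower in each. Of the transcription factors 7 of 12 and 7 of 10 were higher, and Klf4 was lower in both, a call that the full set of neutrophils did not give. Of the glycolysis genes 4 of 10 (Slc2a1, Slc2a3, Pfkfb4 and Pkm) were higher than in macrophages, and 2 of 7 (Slc2a3 and Pkm) were higher and 1 (Gapdh) lower than in dendritic cells. Of the stefins and cystatins 3 of 5 and 3 of 4 were higher and Cst3 was lower in both. Among primary granule genes Srgn was higher and Ctsc and Lyz2 were lower in both comparisons, and Tubb5 was lower in both.

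**Figure D4:**
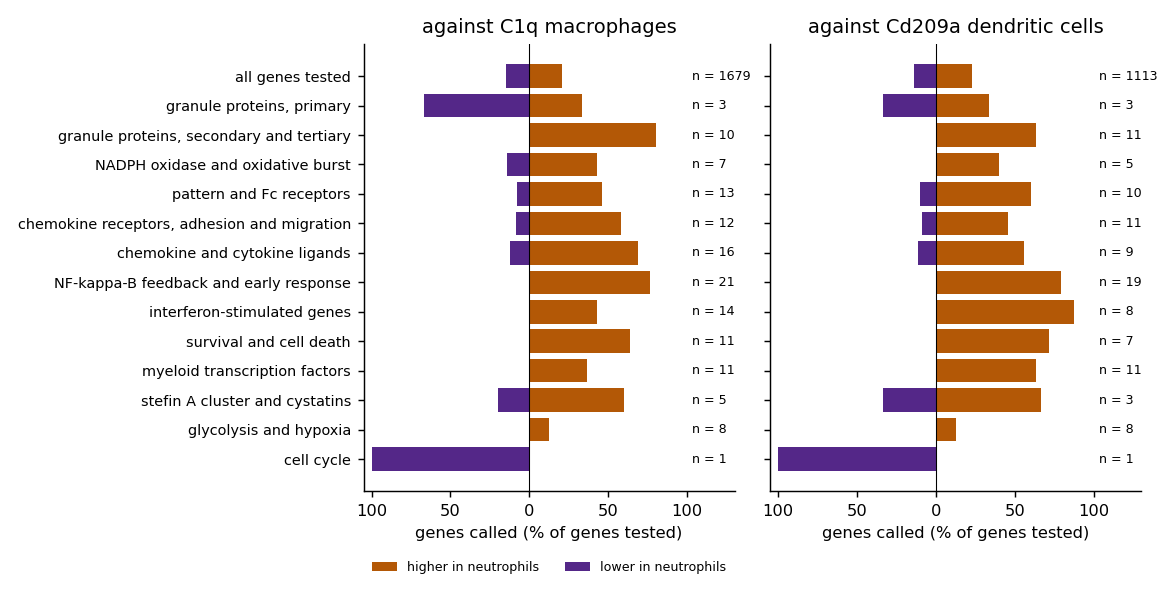
Percent of the tested genes of each list called higher (orange, to the right) or lower (purple, to the left) in neutrophils than in C1q macrophages (left) and Cd209a dendritic cells (right), with the number of genes tested. Against all genes tested (20.5% higher and 14.9% lower at the left, 22.6% and 13.7% at the right), 8 of 10 secondary and tertiary granule genes and 16 of 21 early response genes stand higher at the left. The left panel rests on PBMCsec libraries alone.

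The genes farthest apart, named by a rule on called genes with every library on the same side, were Trem1, Stfa2l1, Hdc, Cyp4f18, Acod1, Il1f9, Pglyrp1 and Mirt1 against macrophages and Hp, Lrg1, Acod1, Csf1, Stfa2l1, Mmp9, Pglyrp1 and Hcar2 against dendritic cells. Hdc, which makes histamine, stood at 1350.2, 3484, 2695 and 1553 CPM after PBMCsec and 4382, 4666, 1318 and 1615 CPM after vehicle, with 416 UMIs in the neutrophils and 1 in the macrophages of the libraries compared, a ratio of 1502 with an exact 95% counting interval of 268 to 59477. Acod1, which makes the antimicrobial metabolite itaconate, had 290 UMIs against 1, a ratio of 1047 (186 to 41505). Cyp4f18, an enzyme that breaks down leukotriene B4, was at least 139-fold and Il1f9, a cytokine of the interleukin 1 family, at least 105-fold higher than in macrophages. Both, like Trem1, Stfa2l1, Pglyrp1 and Mirt1, had no UMI in the macrophages compared and could only come out higher. Hcar2, the niacin and butyrate receptor, had 188 UMIs against 2 in dendritic cells, a ratio of 365 (99.7 to 3039). Hp, Lrg1, Acod1, Csf1, Stfa2l1, Mmp9 and Pglyrp1 had no UMI in the dendritic cells compared and could only come out higher. The genes farthest below macrophages were Mrc1, Ms4a7, Pf4, F13a1, Ccl7, H2-DMb1, Dab2 and Ccl2, all at 0 in the neutrophils compared and at least 31.8-fold lower. Mrc1, the mannose receptor, was at least 102-fold lower. The genes farthest below dendritic cells were H2-Ab1, H2-DMb1, Ear2, Cd209d, Mrc1, Cd209e, Tmem176a and Ccr2, also at 0 and at least 29.7-fold lower, led by H2-Ab1, a chain of the MHC class II molecule, at least 471-fold lower. Being at 0 in the neutrophils, the genes farthest below either class entered the test through that class alone and could only come out lower. Of the other cells' marker lists, 6 of 6 macrophage and monocyte genes tested were lower than in macrophages and 3 of 3 dendritic cell genes tested were lower than in dendritic cells. Of these, 3 of the 6 and 1 of the 3 had no UMI in the neutrophils and could only come out lower. The fibroblast genes Dcn and Lum were also called higher than in macrophages, beside the fibroblast level of the 6 deep cells given above, as was the keratinocyte gene Lgals7 in both comparisons (log2 fold changes 2.09 and 2.14). Without the deep cells no fibroblast gene had enough counts to be tested, and Lgals7 was not called (log2 fold changes 1.22 and 0.95, edgeR adjusted p = 0.0605 and 0.136), while Acta2, of smooth muscle and pericytes, was called higher than in macrophages.

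Whether PBMCsec changed the genes of neutrophils could be asked only with few cells. At 10 neutrophils per library, the minimum set at first, 1 vehicle library was left, and by the design no test was given. With a minimum of 5 per library all 8 libraries entered, with 86 neutrophils after PBMCsec and 30 after vehicle, and the neutrophil UMIs per library lay between 6827 and 80082. Of 281 genes tested edgeR called 0 (0%), while 4 genes were higher and 2 lower with a raw p below 0.05. DESeq2 called 1 gene, Ccl3 (0.356%). Other settings gave few calls: 3 of 10255 genes without a filter on low counts (0.0293%, all higher), 1 of 365 with a mitochondrial limit of 5% (0.274%, higher), and 18 of 558 in libraries 1 and 2 alone (3.23%), 16 higher (2.87%) and 2 lower (0.358%), against 0 in libraries 3 and 4 alone. The median log2 fold change over all genes was -0.08. The depth limits this comparison. In simulated counts of the same size, 200 of the 281 genes were changed and all genes shared 1 dispersion, the spread between libraries. There edgeR found 2% of the 2-fold changes, 65.5% of the 4-fold and 89% of the 8-fold changes put in. Most 2-fold changes would thus have been missed. The adjustment of p is milder where most genes change, so the shares found can be too high for data in which few do.

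The chemokines Ccl3 and Ccl4, which attract monocytes, macrophages and lymphocytes, had the smallest p-values. edgeR called neither among the 281 genes past the filter on low counts and both without that filter, and DESeq2 called Ccl3. Ccl3 (chr11:83647844-83649355, minus strand) and Ccl4 (chr11:83662584-83664683, plus strand; GENCODE M21, GRCm38) are neighbours that do not overlap in this annotation. Ccl3 stood at 3916, 4708, 2264 and 1775 CPM after PBMCsec and 786, 43.6, 0 and 484 CPM after vehicle. Ccl4 stood at 5918, 9802, 3557 and 3732 CPM after PBMCsec and 1011, 43.6, 0 and 1023 CPM after vehicle. All PBMCsec libraries lay above all vehicle libraries for both genes, with PBMCsec 2 highest and vehicle 2 and 3 near or at 0. Behind these levels were 174, 377, 21 and 88 UMIs of Ccl3 after PBMCsec and 7, 1, 0 and 9 after vehicle, and 263, 785, 33 and 185 against 9, 1, 0 and 19 UMIs of Ccl4. A single cell held up to 162 UMIs of Ccl3 and 350 of Ccl4. The log2 fold change was 3.11 ± 0.89 for Ccl3 and 3.21 ± 0.97 for Ccl4 (SE, edgeR, unadjusted p = 0.0054 and 0.0074, both adjusted p = 0.996), and DESeq2 gave adjusted p-values of 0.0409 and 0.0758. Without the deep cells, vehicle 4 with its 4 remaining cells included, it was 3.16 ± 0.81 and 3.19 ± 0.89 (SE, edgeR adjusted p = 0.364 for both). With vehicle 4 left out as well, edgeR called 7 of 377 genes (1.86%), named here after their values were seen. Of these 6 were higher (1.59%: Ccl3, Ccl4, Gadd45b, Fth1, Acod1 and Ftl1) and 1 lower (0.265%: Mgst1). Ccl3 had a UMI in 49 of 86 neutrophils after PBMCsec and 4 of 30 after vehicle, and Ccl4 in 37 and 3. By library the share with a Ccl3 UMI was 63.2%, 60%, 57.1% and 48% after PBMCsec and 40%, 7.14%, 0% and 20% after vehicle, and that with a Ccl4 UMI 42.1%, 40%, 42.9% and 48% against 20%, 7.14%, 0% and 20%. Thinned to 900 UMIs per cell, the Ccl3 share was 42.1%, 51.4%, 57.1% and 40% against 40%, 0%, 0% and 20%, so that PBMCsec 4 and vehicle 1 were then level. The thinned Ccl4 share was 36.8%, 31.4%, 42.9% and 44% against 20%, 0%, 0% and 20%, and the groups did not overlap. Of the 53 cells with Ccl3 and the 40 with Ccl4, 34 held both, 64.2% of the former and 85% of the latter.

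The same genes were also uneven in other cells of these libraries. In C1q macrophages Ccl4 stood at 1902, 801, 698 and 219 CPM after PBMCsec and 0, 0, 247 and 9.47 CPM after vehicle, and Ccl3 at 283, 128, 83.6 and 28.3 CPM after PBMCsec and 0, 0, 5.61 and 18.9 CPM after vehicle. For Ccl3 all PBMCsec levels lay above all vehicle levels here too, while for Ccl4 PBMCsec 4 lay below vehicle 3. The share of macrophages with a Ccl3 UMI was 28.6%, 26.3%, 10.8% and 12% after PBMCsec and 0%, 0%, 2.56% and 9.09% after vehicle. For Ccl4 it was 31%, 26.3%, 20% and 8% against 0%, 0%, 5.13% and 4.55%. Neither share overlapped between the groups. Vehicle 1 and 2 held only 6 and 2 macrophages, so their values of 0 resolve no order of the groups. In Cd209a dendritic cells Ccl4 stood at 15.2, 0, 459.6 and 6.37 CPM after PBMCsec and 18.2, 90.3, 0 and 57 CPM after vehicle, and the groups overlapped. In all other cells together Ccl3 stood at 34.4, 48.8, 8.85 and 1.81 CPM after PBMCsec and 61, 21.6, 0.847 and 2.61 CPM after vehicle, with the groups overlapping. In vehicle 3 the neutrophils had no UMI of either gene among 6827 UMIs, which allows up to 439 CPM (3 UMIs). In vehicle 2, with 1 UMI of each among 22932, the limit of 3 UMIs is 131 CPM. What part free RNA had in the levels of the other classes was not tested.

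**Figure D5:**
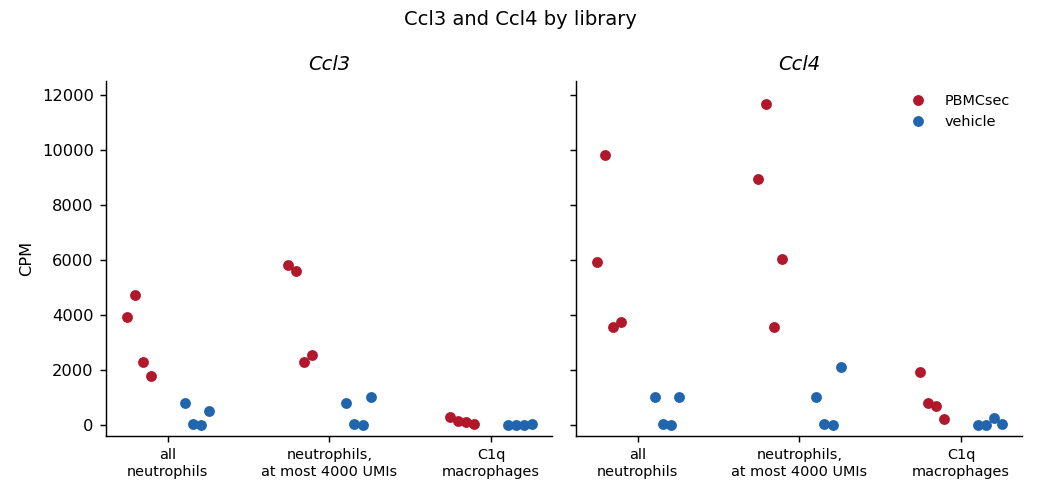
Levels of Ccl3 (left) and Ccl4 (right) in CPM in all neutrophils, in the 110 neutrophils with at most 4000 UMIs and in C1q macrophages, with 1 point per library, PBMCsec in red and vehicle in blue. In neutrophils all PBMCsec points lie above all vehicle points, with the lowest PBMCsec Ccl4 level at 3557 CPM and the highest vehicle level at 1023 CPM. In macrophages the same holds for Ccl3 and not for Ccl4.

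The groups did not overlap for 4 of 281 genes (1.42%), of which 3 were higher after PBMCsec (1.07%) and 1 lower (0.356%). Relabelling 4 against 4 libraries separates the groups with a probability of 0.0286 per gene, so this share is no more than relabelling alone gives. Besides Ccl3 and Ccl4 these were Hsp90ab1, a heat shock chaperone, at 1148, 624, 539 and 1271 CPM after PBMCsec and 0, 131, 293 and 538 CPM after vehicle, and Prdx5, a peroxidase of hydrogen peroxide, at 473, 362, 431 and 484 CPM after PBMCsec and 786, 829, 879 and 1561 CPM after vehicle. Hsp90ab1 had a log2 fold change of 1.70 ± 0.77 and Prdx5 of -1.34 ± 0.51 (SE, edgeR, unadjusted p = 0.0501 and 0.0235, adjusted p = 0.996 for both). Without the deep cells the groups overlapped for Hsp90ab1, with 777 CPM in vehicle 4. The other genes with the smallest p-values were Acod1 and Cstb, with log2 fold changes of 1.58 and 1.17, and Fbxl5, Rac2, Gmfg and Ier2, between -1.12 and -0.67, and none of them was called (edgeR adjusted p = 0.996 for all).

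Over all 281 genes tested 122 log2 fold changes were positive and 159 negative, and 110 and 112 of 222 without the deep cells. Of the 8 chemokine and cytokine ligands tested 6 had a positive and 2 a negative log2 fold change (median 0.16), and Cxcl2 had 1.21 ± 0.66 (SE, edgeR adjusted p = 0.996). Of the 14 early response genes 4 were positive and 10 negative (median -0.14), but 8 of 15 were positive without the deep cells (median 0.03). Of the 3 NADPH oxidase genes all were negative with and without the deep cells (medians -0.38 and -0.32). The medians of the other lists of 2 or more genes lay between -0.30 and 0.37, and none of their genes was called. The summed level of the ligand list was 44512, 63647, 49801 and 34411 CPM in PBMCsec 1 to 4 and 35726, 43564, 29149 and 17708 CPM in vehicle 1 to 4, and the groups overlapped with PBMCsec 4 below vehicle 1 and 2. Without the deep cells it was 62666, 75038, 49801 and 53328 CPM in PBMCsec 1 to 4 and 35726, 43564, 29149 and 29428 CPM in vehicle 1 to 4, and the groups did not overlap. Il1b, Cxcl2, Ccl3 and Ccl4 are members of this list, so the sum follows them. The 1 fibroblast gene tested, Dcn, stood at 1485, 774, 108 and 1593 CPM after PBMCsec and 0, 0, 0 and 10011 CPM after vehicle, so that vehicle 4 alone of its group was above 0, and had a log2 fold change of -1.77 ± 1.64 (SE, edgeR adjusted p = 0.996). Without the deep cells no fibroblast gene was tested.

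Genes were also counted together within single neutrophils. Of the 26 cells with Retnlg 25 held Il1b, 14 Ptgs2, 14 Cxcl2, 6 Ccl3 and 3 Ccl4, and 8 held Cxcr4. Of the 60 cells with Cxcr4 all held Il1b, 50 Ptgs2, 49 Cxcl2, 29 Ccl3, 23 Ccl4 and 8 Retnlg. Cells with Cxcl2 (76) held Ptgs2 in 84.2% and Hdc in 90.8%. Over all neutrophils the shares were 99.1% for Il1b, 82.8% for Hdc, 73.3% for Ptgs2, 65.5% for Cxcl2, 45.7% for Ccl3 and 34.5% for Ccl4. These are counts of detection in cells of differing depth from 8 libraries, given as a description.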

How the data were processed

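Single-cell libraries of whole dorsal skin (10x 3' chemistry, v3.1) were made from 8 samples. The values deposited are UMI counts by gene and barcode without normalization, made with Cell Ranger on mm10 with 31053 genes, and the file headers and the submitters' notes give version 3.0.2 while the methods of the study give another. Per the labels 4 samples were PBMCsec and 4 vehicle. The study's methods describe separate mice within each injected group, but the labels do not tie libraries to mice, so p-values measure the spread between these samples. A cell was kept from 500 up to 4000 genes, with no more than 20000 UMIs and no more than 10% of them mitochondrial, and no doublet caller was run. The members of the cell class, the comparison classes and the gene lists were chosen with earlier results of these data known, and no p-value was adjusted over a list alone.

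UMI counts were summed over the neutrophils of each library and tested with edgeR 4.0.16 (quasi-likelihood, TMM, filterByExpr, Benjamini-Hochberg adjusted p under 0.05), and DESeq2 1.42.0 was an alternative (R 4.3.3; Python 3.11.15 and scipy 1.17.1 for the rest). The 11 genes of the rule, 3 genes of ribosomal RNA overlap (Gm42418, Gm17056 and Gm26917, also taken out of library sizes), 8 collagen and keratin genes (Col1a1, Col1a2, Col3a1, Krt1, Krt5, Krt10, Krt14 and Krtdap) and the genes that define a comparison class were left out of tests. The design asked for 10 cells per library, which left 1 vehicle library and, by its rule, no test. The treatment fit given here used the alternative minimum of 5. Classes were compared with the library as a block. Genes were named by rule: up to 4 of each list by mean level, the 8 largest called rises and falls of each class comparison with every library on the same side, and, with none called, the 5 smallest p in each direction after PBMCsec. Other list members are named by their calls. A few list members are counted in their lists but not reported by name here.

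On simulated counts edgeR recovered 56.5% of 4-fold and 95% of 8-fold changes against macrophages, and 66.5% and 94.5% against dendritic cells. There 200 of 1679 and 200 of 1113 genes were changed, with 1 dispersion for all genes. Positions are from GENCODE M21 (GRCm38) and promoters from RefSeq (GRCm38.p6). Binomial intervals (exact, 95%) and limits of 3 counts cover counting error only.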

Additional observations from a re-analysis of the deposited data

Results flagged for a closer look

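In 4 of the 38 groups of 4 libraries checked, 1 library stood far from the other 3 by Dixon's criterion at the 95% level, which chance meets in about 1 in 20 groups. G0s2, 1 of the genes that chose the cells, stood at 10290 CPM in PBMCsec 2, against at most 5345 CPM in the other PBMCsec libraries. The other values were all of vehicle 4, which held 5 neutrophils and 1 cell with 51.5% of its UMIs. Acod1 stood there at 861 CPM and Prdx5 at 1561 CPM, each the highest of the vehicle libraries, and Fbxl5, a subunit of an iron-sensing ubiquitin ligase, at 161 CPM, the lowest of them.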

How the results depend on the processing

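Apart from the main values, 69 shares and counts of calls were recomputed. Of these 58 stayed within 1.5 times their value or kept their direction, 10 moved and 1 reversed. For the genes named as farthest apart or by the smallest treatment p-values, 601 values were recomputed. Among them 581 kept direction and side of the threshold, 11 gained a call, 9 lost one and none reversed. Genes named only through their lists are not in this tally. The difference in share ranged from -0.173 to 1.94 percentage points with each library left out, and the negative value came without PBMCsec 2. With 0 treatment calls as reported, DESeq2 called 1 gene, no filter on low counts 3 (Ccl3, Ccl4 and Spp1, of 10255), a mitochondrial limit of 5% 1 (Ccl4), libraries 1 and 2 alone 18 and libraries 3 and 4 alone 0. Leaving out each library gave 0 calls with all neutrophils and 0 to 7 among those with at most 4000 UMIs, an alternative chosen after seeing the data. The 7 came without vehicle 4 (7 of 377 genes, 1.86%). Over 27 settings the log2 fold change ranged from 2.52 to 4.15 for Ccl3 and from 2.47 to 4.69 for Ccl4, with adjusted p from 0.00132 to 0.9998 and from 4.56e-05 to 0.9998 by edgeR or DESeq2. Against macrophages 1101 of 12746 genes were called with no filter (8.64%, against 35.4% as reported). With each library left out the calls ran from 448 of 1622 (27.6%) to 777 of 2213 (35.1%). Against dendritic cells 965 of 12129 were called with no filter (7.96%), 695 of 1524 with a mitochondrial limit of 5% (45.6%) and 664 of 1000 at no more than 4000 UMIs (66.4%). With each library left out 35 to 521 were called, the 35 without PBMCsec 1 (32 higher and 3 lower of 1175). Of the genes named as farthest apart, Hp, Lrg1, H2-DMb1, Ear2, Cd209d, Mrc1, Cd209e, Tmem176a and Ccr2 lost their calls there. Genes named only through their lists were not followed, and most lower calls were lost. The cause of this fall was not tested. The median log2 fold change of all genes moved from -0.12 to -0.23 with DESeq2 against macrophages and from -0.19 to -0.38 against dendritic cells. The library numbers are shared by the groups. The correlation of deviations was 0.03, 0.26, -0.08 and 0.39 for numbers 1 to 4 over 281 genes. Some libraries held few neutrophils, so these correlations cannot decide whether the numbers are pairs, and the main tests were unpaired. The neutrophil share ranked alike by number in both groups. In all other cells the mast cell, basophil and eosinophil genes summed to 232, 1009, 19.1 and 31.9 CPM in PBMCsec 1 to 4. They summed to 1717, 3505, 10.4 and 14.9 CPM in vehicle 1 to 4. With the number as a replicate block edgeR called 0 genes, and the share gave an exact sign-flip p of 0.125 for the same difference of 1.18, the smallest p that 4 pairs allow. Minima of 10 and 20 neutrophils per library left 1 and 0 vehicle libraries, and no treatment test was run. The depth of 6827 UMIs in the neutrophils of vehicle 3 and 8901 in those of vehicle 1 limits what low genes can show.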
